A study of Mus musculus with 16 samples.

Results

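The subject is the effect of activated beta-catenin that was common to the endothelium of adult mouse liver and lung. All 16 deposited libraries entered it, out of 16 in the series, as 8 pairs of same-letter libraries, 4 pairs in each organ. The raw counts of both organs were joined gene by gene, and for each of 17536 genes with enough reads the mean of the liver change and the lung change was tested with the pairs as blocks. The genes described are those that moved the same way in both organs, looked at pair by pair.

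The libraries came from endothelial cells sorted by a fluorescent antibody to CD31, an endothelial adhesion molecule encoded by Pecam1, after liver or lung had been broken up by trituration. The GOF groups carried Rosa-Bcat-GOF/+, an allele from which activated beta-catenin is made once Cre has acted, together with VE-Cadherin-CreERT2, an inducible Cre under the promoter of the endothelial gene Cdh5. The control groups carried Rosa-Bcat-GOF/+ alone, so all 4 groups held the activatable allele. Cre and activated beta-catenin differed together between GOF and control and cannot be told apart, and the labels state neither the inducing drug and its dose nor an age beyond adult. There were 4 libraries of liver GOF (letters B, E, F and G), 4 of liver control (the same letters), 4 of lung GOF (B, D, E and F) and 4 of lung control (the same letters).

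Beta-catenin is the transcriptional effector of the canonical Wnt pathway. When Wnt ligands bind Frizzled and LRP co-receptors, a cytoplasmic complex built on Axin stops degrading beta-catenin, which then enters the nucleus and binds transcription factors of the TCF/LEF family. Among the genes it switches on are inhibitors of the pathway itself, such as Axin2. In brain endothelium the pathway is known for maintaining the blood-brain barrier, where it favours efflux pumps and tight junctions over the fenestral protein PLVAP; liver sinusoids and lung capillaries have no such barrier.

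Each library held 22815467 to 37127150 counts, spread over 15533 to 17897 genes. Levels are given as CPM, counts scaled to a fixed library total, with TMM factors over the 16 libraries. Pecam1, the antigen of the sort, lay between 1747 and 2128 CPM in liver GOF libraries and between 2084 and 2295 CPM in liver controls, and between 2218 and 2855 CPM in lung GOF libraries and between 2611 and 3216 CPM in lung controls. Transcripts of other cells were present too. Alb, the albumin gene of hepatocytes, reached 1329 CPM in liver GOF and 2727 CPM in liver controls, and Sftpc, the surfactant gene of alveolar type 2 cells, reached 7573 CPM in lung GOF and 8342 CPM in lung controls. In bulk RNA, fewer cells of a type and less RNA per cell cannot be told apart. Ctnnb1, which encodes beta-catenin, did not separate the genotypes: it was lower in 6 of 8 pairs, with a mean log2 fold change of GOF over control of -0.07 (SE 0.06, adjusted p = 0.822 by edgeR's quasi-likelihood test with Benjamini-Hochberg adjustment, used throughout). The labels do not say whether transcripts of the activated allele were counted with those of the native gene.

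Of the 17536 genes tested, 153 (0.872%) passed an adjusted p of 0.05 for the mean of both organs, 88 higher in GOF (0.502%) and 65 lower (0.371%); such genes are named as called below. At an unadjusted p of 0.05, 1717 genes passed (9.79%). The mean can pass through 1 organ alone. In the same fit the liver change called 1.46% of genes and the lung change 1 gene (0.0057%), lower Amigo2. Without the pairs as blocks the mean called 8 genes, all higher; among the genes named here Tcf7, Maged2, Axin2, Abcb1a, Sox4 and Atp10a were called in that fit. Of the 153 genes, 112 were also called in liver, 1 in lung and 41 in neither organ taken alone. The larger of the liver and lung p, with 1 sign demanded, asks for a change in each organ, and by it 0 genes (0%) passed after adjustment, against 162 (0.924%) at an unadjusted p of 0.05. Plat, Car8 and Net1 came closest (adjusted p = 0.178), followed by Tgfb2 (0.192), Cpe and Amigo2 (0.288) and Maged2 (0.409). On this stricter demand DESeq2's Wald test called 15 genes and limma voom 7, and Plat, Car8, Net1, Amigo2, Maged2 and Abcb1a were among both.

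**Figure D1:**
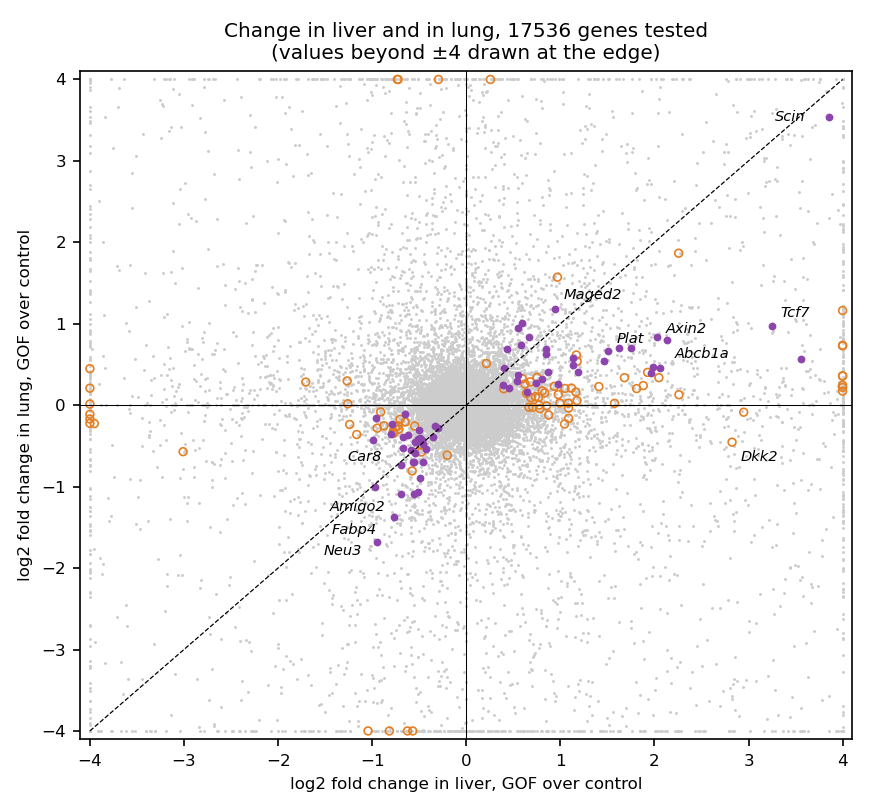
Log2 fold change of GOF over control in liver (horizontal axis) and in lung (vertical axis) for 17536 genes tested; purple points are the 65 called genes with 1 direction in all 8 pairs, open orange circles the other called genes, grey points the rest, and the dashed line marks equal change. Purple points lie above 0 or below 0 on both axes by their definition, and Tcf7, Plat, Axin2 and Abcb1a lie well below the dashed line, on the side of a larger liver change.

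The pairs were then taken one by one. The ratio of GOF to control had 1 direction in all 8 pairs for 297 genes (1.69%), 143 of them higher in GOF (0.815%) and 154 lower (0.878%), and in at least 7 of 8 pairs for 1600 (9.12%). Among the 153 called genes, 65 had 1 direction in 8 of 8 pairs, 33 higher and 32 lower, and 50 more in 7 of 8. In those 50 the odd pair was usually a lung pair: lung D in 15 genes, lung E in 14, lung B in 10 and lung F in 5, against 1 or 2 genes for each liver pair. Both organs' fold changes had 1 sign in 134 of the 153 genes and opposite signs in 19. Over all genes tested, 8523 (48.6%) had 1 sign. A call on the mean of both changes itself favours 1 sign, so the count among called genes is no evidence of a common change.

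The 33 rises with 8 of 8 pairs had a median log2 fold change of 0.95 in liver and 0.56 in lung, 26 of them were larger in liver, and 6 passed the test of the difference between organs, which called 86 of all genes (0.49%). The 32 falls had a median of -0.55 in liver and -0.47 in lung, 17 were larger in liver and 15 in lung, and 0 passed that test by edgeR, against 7 at an unadjusted p of 0.05 (19 of the 33 rises did so). GOF and control libraries did not overlap in either organ for 12 of all genes tested (0.0684%), 6 higher and 6 lower (0.0342% each). The called genes among them were Tcf7, Axin2, Maged2 and Vgll4, which were higher, and Car8 and Fam3c, which were lower.

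**Figure D2:**
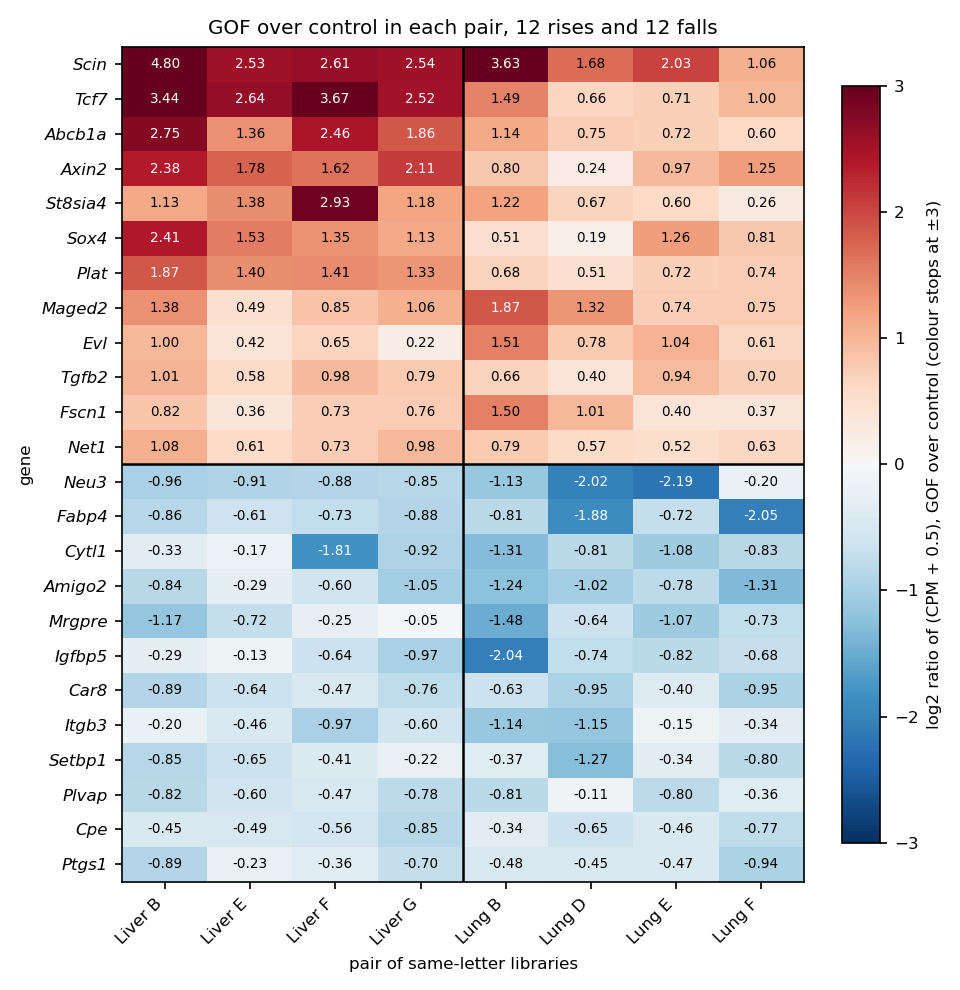
Log2 ratio of GOF over control, computed on CPM + 0.5, in each of the 8 pairs (columns, liver left and lung right) for the 12 rises and 12 falls with the largest change in their weaker organ (rows, ordered by the mean fold change). Every cell of the upper 12 rows is above 0 and every cell of the lower 12 is below 0, as the choice of these genes requires; Tcf7 spans 3.67 in liver F to 0.66 in lung D, and Mrgpre is closest to 0 with -0.05 in liver G.

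The transcription factors that beta-catenin binds were represented by Tcf7, which encodes TCF1. Tcf7 stood at 48.1, 18.6, 35.02 and 31.4 CPM in liver GOF libraries B, E, F and G, against 3.99, 2.58, 2.29 and 5.04 CPM in liver controls B, E, F and G. It stood at 45.9, 48.3, 36.9 and 54.2 CPM in lung GOF libraries B, D, E and F, against 16.03, 30.5, 22.4 and 26.8 CPM in lung controls B, D, E and F. All GOF libraries lay above all controls of their organ, and lung controls already stood far above liver controls. For Tcf7 the mean log2 fold change was 2.11 (SE 0.16, adjusted p = 5.13e-05), with 3.25 in liver and 0.98 in lung; the organ difference was called (lung minus liver -2.27, adjusted p = 0.00747). Of the 4 family members tested, Tcf7 was the 1 called. Lef1, its close relative, had at most 3.08 CPM in liver GOF and 0.71 CPM in liver controls, and at most 3.49 CPM in lung GOF and 0.24 CPM in lung controls; its fold change of 3.29 had an SE of 1.299 and was not called (adjusted p = 0.412).

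Axin2, the Axin-family scaffold that is both a target and a brake of the pathway, rose in every pair. Axin2 stood at 71.3, 23.4, 33.7 and 40.5 CPM in liver GOF libraries B, E, F and G, against 13.3, 6.47, 10.6 and 9.04 CPM in liver controls B, E, F and G. It stood at 31.04, 21.001, 19.4 and 27.996 CPM in lung GOF libraries B, D, E and F, against 17.6, 17.8, 9.68 and 11.5 CPM in lung controls B, D, E and F. The genotypes did not overlap in either organ. For Axin2 the mean log2 fold change was 1.43 (SE 0.14, adjusted p = 0.000341), 2.03 in liver and 0.84 in lung, and the difference between organs was not called (adjusted p = 0.0913).

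The list of feedback inhibitors of the pathway had 23 members tested, of which 2 were called, both higher, and 17 had a positive fold change (median 0.19). Over all genes tested, against which this and the following lists are to be read, 0.872% were called, 8763 of 17536 were positive and the median was 0.00. The other called member, Dkk2, a secreted antagonist of LRP co-receptors, does not belong to the common effect: it was higher in 4 liver pairs and lower in 3 of 4 lung pairs, and the organ difference was called (lung minus liver -3.28, adjusted p = 0.0022). Znrf3, an E3 ligase that removes Frizzled receptors, was higher in 8 of 8 pairs but not called (0.85, adjusted p = 0.234). Apcdd1 (0.75, adjusted p = 0.463), Nkd1 (0.15, adjusted p = 0.549) and Notum (0.05, adjusted p = 1) are further inhibitors that were not called. Among 28 other target genes 3 were called, all higher, but 14 had a positive and 14 a negative fold change (median -0.006). In both organs 8 of the 28 were positive and 6 negative, and 1 uncalled member was lower in 8 of 8 pairs. Mycn, a MYC-family factor, rose in 8 of 8 pairs (1.18, SE 0.20, adjusted p = 0.0119), with 1.97 in liver and 0.40 in lung. Its log2 ratio was 1.03 in lung B and 0.03 to 0.36 in the other lung pairs. Myc rose in 7 of 8 (0.49, SE 0.08, adjusted p = 0.0109). Plaur, the urokinase receptor, was higher in 5 of 8 pairs, with 0.88 in liver and -0.12 in lung. Its call was lost without liver pair E or lung pair D or F (0.35 to 0.43 over all alternatives). Sp5, a zinc-finger factor known as a direct target, was higher in 7 of 8 pairs with a change of 1.12 that was called by DESeq2 and not by edgeR (adjusted p = 0.137). By edgeR 0 of 18 ligands and R-spondins, 0 of 20 receptors and co-receptors and 0 of 29 members of the signalling chain were called, against 3, 2 and 2 at an unadjusted p of 0.05. DESeq2 called 1 ligand and 2 receptors, and limma voom 2 receptors. Over all 17536 genes 9.79% passed an unadjusted p of 0.05, DESeq2 called 445 and limma voom 177. Counts by these measures, here and in later lists, are to be read against those values. Without a call by edgeR, the ligand gene Wnt9b (-1.16, adjusted p = 0.0584) and the co-receptor gene Lrp5 (-0.30, adjusted p = 0.0846) were lower in 8 of 8 pairs. Gpr124, of the receptor list, was higher in 8 of 8 (0.30, adjusted p = 0.0611).

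Promoter windows of leading rises are shown because these genes moved together in all pairs and TCF/LEF factors bind a short known sequence. The windows are the 250 bases before the annotated start, from RefSeq on build GRCm38.p6, and the letters searched were CTTTG followed by AA, AT, TA or TT on both strands, so that a match on the other strand ends in CAAAG. The 4 spellings share their first letters and so cannot match at 1 place. Capitals mark the matches. The windows of Axin2 (chr11:108920099-108920348, plus strand), Abcb1a (chr5:8566841-8567090, plus strand) and Maged2 (1 of its 4 windows, chrX:150813003-150813252, minus strand) were:
Axin2: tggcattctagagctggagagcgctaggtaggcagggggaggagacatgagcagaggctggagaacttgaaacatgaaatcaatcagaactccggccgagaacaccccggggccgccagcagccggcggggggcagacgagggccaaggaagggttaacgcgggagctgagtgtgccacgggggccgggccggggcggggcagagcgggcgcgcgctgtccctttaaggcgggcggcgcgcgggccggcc
Abcb1a: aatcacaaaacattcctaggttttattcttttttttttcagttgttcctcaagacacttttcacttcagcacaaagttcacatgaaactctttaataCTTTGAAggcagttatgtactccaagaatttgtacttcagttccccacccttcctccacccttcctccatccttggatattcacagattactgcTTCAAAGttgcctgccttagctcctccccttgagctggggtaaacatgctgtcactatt
Maged2: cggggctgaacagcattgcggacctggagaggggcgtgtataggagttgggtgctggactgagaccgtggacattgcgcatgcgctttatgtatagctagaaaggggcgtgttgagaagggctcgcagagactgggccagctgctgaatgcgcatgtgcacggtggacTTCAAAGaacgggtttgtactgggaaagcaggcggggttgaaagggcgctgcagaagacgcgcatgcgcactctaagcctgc
The Axin2 window held 0 matches, the Abcb1a window 2, which began 153 and 59 bases before the start, and the printed Maged2 window 1, which began 82 bases before it. The same match lies in a second, overlapping Maged2 window, and the other 2 windows of that gene held 0. Both windows of Tcf7, both of Net1, 1 of 2 of Evl and the single windows of Scin, St8sia4, Sox4 and Fscn1 held 0, while that of Tgfb2 and the other of Evl held 1. Of the 33 called rises with 8 of 8 pairs 28 had a window in the table and 7 of these held a match (25.0%); of the 32 falls 18 had one and 3 held a match (16.7%). The share was 13.2% over 11074 tested genes with a window and 16.8% over all 27025 genes with a window. Counted by window instead of by gene, it was 14.8% over all 32851 windows. These matches describe the letters in these windows and nothing about binding.

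Abcb1a encodes P-glycoprotein, the efflux pump of the blood-brain barrier. Abcb1a stood at 194, 60.4, 113 and 136 CPM in liver GOF libraries B, E, F and G, against 28.4, 23.2, 20.2 and 37.2 CPM in liver controls B, E, F and G. It stood at 344, 224, 372 and 206 CPM in lung GOF libraries B, D, E and F, against 156, 134, 225 and 136 CPM in lung controls B, D, E and F. Liver GOF libraries all lay above liver controls, while in lung GOF D and F lay just below control E and each GOF library exceeded its own control. For Abcb1a the mean log2 fold change was 1.47 (SE 0.13, adjusted p = 0.00022), with 2.13 in liver and 0.80 in lung and a called organ difference (adjusted p = 0.0395). Reads of its near-identical neighbour Abcb1b may be shared with it. Of 45 barrier genes tested 2 were called, both higher; the other, the phospholipid flippase Atp10a, changed by 1.81 in liver and 0.20 in lung, with a called organ difference (adjusted p = 0.0344). The tight junction gene Cldn5 was higher in 7 of 8 pairs at a change of 0.27 (SE 0.07) that was not called by edgeR (adjusted p = 0.108) but was by DESeq2 and limma voom. The glucose transporter Slc2a1 changed by 0.05 (adjusted p = 0.955), and the lipid transporter Mfsd2a (adjusted p = 0.767) had at most 1.83 CPM in liver GOF and 2.23 CPM in liver controls.

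Plat, which encodes tissue plasminogen activator, had the smallest p of the mean contrast. Plat stood at 217, 119, 228 and 208 CPM in liver GOF libraries B, E, F and G, against 59.2, 44.5, 85.4 and 82.5 CPM in liver controls B, E, F and G. It stood at 1076, 594, 1015 and 523 CPM in lung GOF libraries B, D, E and F, against 673, 418, 615 and 314 CPM in lung controls B, D, E and F. Liver genotypes did not overlap; in lung each GOF library exceeded its own control, although GOF D and F lay below controls B and E. For Plat the mean log2 fold change was 1.09 (SE 0.07, adjusted p = 1.74e-05), 1.51 in liver and 0.66 in lung, with a called organ difference (adjusted p = 0.02). The spread over pairs was narrow within each organ, 1.33 to 1.87 in liver and 0.51 to 0.74 in lung.

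Maged2, a MAGE-family gene, had the larger of its organ changes in lung. Maged2 stood at 177, 123, 169 and 176 CPM in liver GOF libraries B, E, F and G, against 67.8, 87.6, 93.9 and 83.98 CPM in liver controls B, E, F and G. It stood at 151, 115, 119 and 93.5 CPM in lung GOF libraries B, D, E and F, against 41.1, 45.5, 70.99 and 55.2 CPM in lung controls B, D, E and F. GOF and control did not overlap in either organ. For Maged2 the mean log2 fold change was 1.06 (SE 0.13, adjusted p = 0.00183), 0.95 in liver and 1.18 in lung (organ difference, adjusted p = 0.833). It was also the 1 gene under an adjusted p of 0.05 in both of the authors' deposited tables, with log2 fold changes of 0.85 in liver and 0.85 in lung there; those tables held 130 such entries for liver, of which it is 0.769%, and 1 for lung, of which it is 100%.

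Tgfb2, a TGF-beta ligand, and Net1, an exchange factor for the small GTPase RhoA, rose in all 8 pairs, Tgfb2 by 0.84 in liver and 0.68 in lung and Net1 by 0.85 in liver and 0.63 in lung on the log2 scale. Tgfb2 averaged 197 ± 53.9 CPM in GOF and 109 ± 24.5 CPM in controls (SD, n = 4 each) in liver, and 57.1 ± 10.5 CPM in GOF and 35.3 ± 3.76 CPM in controls (SD, n = 4 each) in lung. For Tgfb2 the mean log2 fold change was 0.76 (SE 0.08, adjusted p = 0.000523), with pair ratios of 0.40 to 1.01. Net1 averaged 244 ± 119 CPM in GOF and 130.5 ± 45.2 CPM in controls (SD, n = 4 each) in liver, and 124 ± 29.9 CPM in GOF and 79.5 ± 15.9 CPM in controls (SD, n = 4 each) in lung. For Net1 the mean log2 fold change was 0.74 (SE 0.07, adjusted p = 0.000341), with pair ratios of 0.52 to 1.08; liver control B, at 198 CPM, stood apart from the other liver controls, and GOF B of the same letter was the highest library at 418 CPM. Of 35 TGF-beta and BMP genes 2 were called, both higher, the other being the receptor Tgfbr2 (0.30, SE 0.06, adjusted p = 0.0302), whose call was lost without liver pair B, E, F or G or lung pair B or D (0.28 to 0.34 over all alternatives).

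Fscn1, Evl and Scin, genes that shape the actin cytoskeleton, rose in all 8 pairs. Fscn1, which encodes the actin-bundling protein fascin, averaged 182 ± 39.4 CPM in GOF and 117 ± 38.1 CPM in controls (SD, n = 4 each) in liver, and 51.3 ± 30.9 CPM in GOF and 26.4 ± 6.398 CPM in controls (SD, n = 4 each) in lung. For Fscn1 the mean log2 fold change was 0.75 (SE 0.12, adjusted p = 0.00802). Evl, an Ena/VASP protein of growing actin filaments, averaged 19.7 ± 7.18 CPM in GOF and 12.9 ± 3.72 CPM in controls (SD, n = 4 each) in liver, and 26.1 ± 7.43 CPM in GOF and 12.6 ± 2.23 CPM in controls (SD, n = 4 each) in lung. For Evl the mean log2 fold change was 0.80 (SE 0.15, adjusted p = 0.0194). The call was lost without liver pair B (0.64 to 0.87 over all alternatives). Scin, which encodes the actin-severing protein scinderin, had the largest fold change of these genes but few reads: 23.7, 3.37, 16.99 and 16.2 CPM in liver GOF (B, E, F and G) against 0.366, 0.168, 2.37 and 2.37 CPM in liver controls, and 5.697, 1.11, 6.66 and 2.33 CPM in lung GOF (B, D, E and F) against 0, 0, 1.26 and 0.854 CPM in lung controls, with 0 reads in lung controls B and D. For Scin the mean log2 fold change was 3.70 (SE 0.66, adjusted p = 0.0172).

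Among regulators, the HMG-box factor Sox4 averaged 66.6 ± 12.3 CPM in GOF and 21.8 ± 5.55 CPM in controls (SD, n = 4 each) in liver, and 59.2 ± 15.5 CPM in GOF and 36.1 ± 8.45 CPM in controls (SD, n = 4 each) in lung. For Sox4 the mean log2 fold change was 1.16 (SE 0.15, adjusted p = 0.00227), larger in liver (1.62) than in lung (0.70) without a called difference (adjusted p = 0.236). It was the 1 called gene of 12 SOX factors tested; Sox17, an arterial one, was higher in 7 of 8 pairs and was called by DESeq2 and not by edgeR (0.44, adjusted p = 0.142). Vgll4, a cofactor of TEAD factors, rose in all pairs by 0.51 (SE 0.07, adjusted p = 0.00229), and averaged 146.5 ± 25.5 CPM in GOF and 88.1 ± 17.5 CPM in controls in liver (SD, n = 4 each), and 178.5 ± 14.7 CPM in GOF and 147 ± 6.18 CPM in controls in lung (SD, n = 4 each). Lrig1, a leucine-rich membrane protein that restrains growth factor receptors, rose by 0.79 (SE 0.08, adjusted p = 0.000341), with 1.18 in liver and 0.40 in lung and a called organ difference (adjusted p = 0.04). Dusp2, a MAP kinase phosphatase, rose by 1.26 (SE 0.14, adjusted p = 0.00104), and its organ difference was called as well (2.06 in liver, 0.46 in lung). St8sia4, a polysialyltransferase, averaged 15.9 ± 7.72 CPM in GOF and 5.59 ± 4.48 CPM in controls (SD, n = 4 each) in liver, and 34.1 ± 4.71 CPM in GOF and 21.6 ± 7.34 CPM in controls (SD, n = 4 each) in lung. For St8sia4 the mean log2 fold change was 1.22 (SE 0.22, adjusted p = 0.0153). The remaining rises with 8 of 8 pairs included the leptin receptor Lepr (0.43), the transcription cofactor Lmo2 (0.32), the monoamine oxidase Maoa (0.62), the angiomotin gene Amot (0.41) and the tubulin Tubb6 (0.56), all called.

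**Figure D3:**
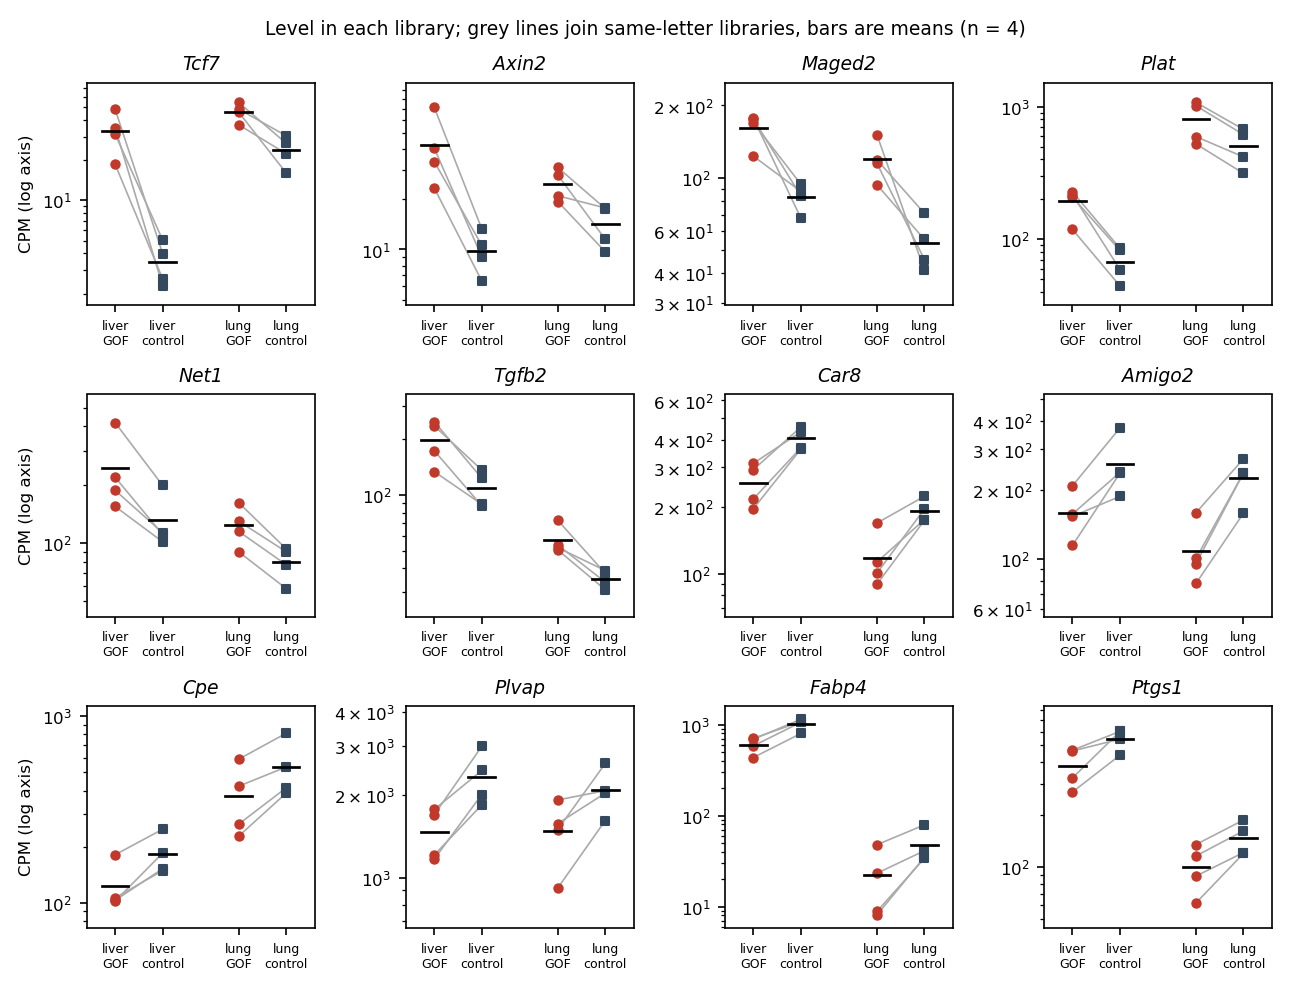
CPM of 12 genes in each of the 16 libraries on a log axis; red circles are GOF, dark squares control, grey lines join same-letter libraries and black bars are group means (n = 4). The lines of Tcf7, Axin2, Maged2, Plat, Net1 and Tgfb2 run down from GOF to control in both organs, and those of Car8, Amigo2, Cpe, Plvap, Fabp4 and Ptgs1 run up.

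Several genes known for venous endothelium fell in the mean of both organs. Of 22 venous genes tested, 6 were called lower and 1, Lepr, higher (31.8% called, against 0.872% of all genes), 15 had a negative fold change, and the median was -0.15. The list as a whole was lower in lung (median -0.37; pair medians -0.51 to -0.24) and near 0 in liver (median -0.04; pair medians -0.25 to 0.05). The list was written with earlier results of these data known, so this count is no independent evidence of its direction. Amigo2, a leucine-rich adhesion molecule, led it. Amigo2 stood at 208, 153, 157 and 114 CPM in liver GOF libraries B, E, F and G, against 373, 187, 238 and 236 CPM in liver controls B, E, F and G. It stood at 100.0, 77.8, 159 and 94.99 CPM in lung GOF libraries B, D, E and F, against 237, 158, 273 and 237 CPM in lung controls B, D, E and F. Every GOF library lay below its own control, and GOF B overlapped the lowest control in liver, as GOF E did in lung. For Amigo2 the mean log2 fold change was -0.89 (SE 0.09, adjusted p = 0.000358), -0.70 in liver and -1.09 in lung.

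Car8, which encodes a carbonic anhydrase-related protein, fell without overlap of the genotypes. Car8 stood at 196, 293, 313 and 217 CPM in liver GOF libraries B, E, F and G, against 363, 456, 433 and 368 CPM in liver controls B, E, F and G. It stood at 113, 100.4, 169 and 89.6 CPM in lung GOF libraries B, D, E and F, against 175, 195, 223 and 174 CPM in lung controls B, D, E and F. No GOF library reached a control of its organ. For Car8 the mean log2 fold change was -0.71 (SE 0.08, adjusted p = 0.00082), -0.69 in liver and -0.74 in lung (lung minus liver -0.05, adjusted p = 0.986).

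Cpe, the prohormone-processing carboxypeptidase E, averaged 123 ± 38.7 CPM in GOF and 183 ± 45.9 CPM in controls (SD, n = 4 each) in liver, and 376 ± 165 CPM in GOF and 537 ± 194 CPM in controls (SD, n = 4 each) in lung. For Cpe the mean log2 fold change was -0.57 (SE 0.07, adjusted p = 0.00183), with pair ratios of -0.85 to -0.34. Ptgs1, the constitutive cyclooxygenase, averaged 382 ± 101 CPM in GOF and 547 ± 76.7 CPM in controls (SD, n = 4 each) in liver, and 100.2 ± 31.7 CPM in GOF and 147 ± 32.5 CPM in controls (SD, n = 4 each) in lung. For Ptgs1 the mean log2 fold change was -0.56 (SE 0.09, adjusted p = 0.00718). Prss23, a serine protease (-0.55, adjusted p = 0.00952), and Fbln2, a matrix protein (-0.53, adjusted p = 0.0245), fell in 7 of 8 pairs. Vwf, which encodes von Willebrand factor, went opposite ways, higher in 4 of 4 liver pairs and lower in 4 of 4 lung pairs, and its organ difference was called (adjusted p = 0.0207). The adhesion molecules Sele (0.83 in liver, -0.49 in lung), Selp (0.56 in liver, -0.21 in lung) and Vcam1 (0.63 in liver, -0.39 in lung) also had opposite signs. Their organ differences were called (adjusted p = 0.00907 for Sele, 0.0471 for Selp and 0.00391 for Vcam1), and their means were not. Nr2f2, the transcription factor of venous identity, changed by -0.12 (adjusted p = 0.693).

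Plvap, the protein of fenestral and caveolar diaphragms, fell in all 8 pairs. Plvap stood at 1692, 1209, 1768 and 1169 CPM in liver GOF libraries B, E, F and G, against 2992, 1837, 2448 and 2003 CPM in liver controls B, E, F and G. It stood at 919, 1914, 1496 and 1573 CPM in lung GOF libraries B, D, E and F, against 1612, 2069, 2596 and 2026 CPM in lung controls B, D, E and F. In liver the genotypes did not overlap; in lung the fall of letter D was small (-0.11) and GOF D exceeded control B. For Plvap the mean log2 fold change was -0.59 (SE 0.08, adjusted p = 0.00348), -0.67 in liver and -0.52 in lung. Of 16 genes of diaphragms and caveolae 2 were called, both lower, the other being Ehd3, an endocytic recycling protein (-0.56, adjusted p = 0.0145, lower in 7 of 8 pairs).

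Fabp4, a fatty acid carrier of capillary endothelium, fell in all pairs. Fabp4 stood at 583, 706, 689 and 434 CPM in liver GOF libraries B, E, F and G, against 1060, 1078, 1143 and 798 CPM in liver controls B, E, F and G. It stood at 23.2, 8.82, 47.7 and 8.07 CPM in lung GOF libraries B, D, E and F, against 41.03, 33.8, 79.02 and 34.96 CPM in lung controls B, D, E and F. Liver genotypes did not overlap, and in lung, where GOF E exceeded 3 of the 4 controls, the ratio was lower in letters D (-1.88) and F (-2.05) than in B (-0.81) and E (-0.72). For Fabp4 the mean log2 fold change was -1.07 (SE 0.14, adjusted p = 0.00226), -0.77 in liver and -1.38 in lung. The fatty acid transporter Cd36 fell by 0.38 on the log2 scale (SE 0.06, adjusted p = 0.0114), by nearly the same amount in liver (-0.35) and lung (-0.40). These were the 2 called of 22 fatty acid handling genes, 14 of which had negative fold changes (median -0.11). Lipe, the hormone-sensitive lipase, and Acsl5, an acyl-CoA synthetase, were lower in 8 of 8 pairs without being called (adjusted p = 0.121 and 0.668).

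Surface and vessel-type genes made up further falls with 8 of 8 pairs. Cxcr7, an atypical chemokine receptor that scavenges CXCL12, fell by 0.58 on the log2 scale (SE 0.07, adjusted p = 0.00229), Lyve1, the hyaluronan receptor of sinusoidal and lymphatic endothelium, by 0.51 (SE 0.07, adjusted p = 0.00269), and Emcn, the endothelial sialomucin, by 0.29 (SE 0.06, adjusted p = 0.0303). Emcn was the 1 called of 25 pan-endothelial genes; its call was lost without any 1 of 7 pairs, all but lung B (-0.32 to -0.27 over all alternatives). Pecam1 was lower in 8 of 8 pairs as well (-0.18, SE 0.06, adjusted p = 0.21). Cdh5, whose promoter drives the Cre, changed by 0.11 (adjusted p = 0.497). DESeq2 called both and edgeR neither. The retinoic acid receptor Rarb (-0.71, adjusted p = 0.0132), the phosphodiesterase Pde2a (-0.69, adjusted p = 0.00729), the lipopolysaccharide-binding protein Lbp (-0.45, adjusted p = 0.0062) and the immune checkpoint ligand Cd200 (-0.40, adjusted p = 0.00892) fell in all pairs. Of 26 sinusoidal genes 2 were called lower, Lyve1 and Ehd3, and of 30 lung capillary genes 1 was lower, Cd36, and 1 higher, Apln, whose change was 1.41 in liver and 0.23 in lung with a called organ difference (adjusted p = 0.0142).

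Igfbp5, an insulin-like growth factor binding protein, averaged 109.6 ± 51.2 CPM in GOF and 154 ± 62.3 CPM in controls (SD, n = 4 each) in liver, and 248 ± 102 CPM in GOF and 489 ± 101 CPM in controls (SD, n = 4 each) in lung. For Igfbp5 the mean log2 fold change was -0.79 (SE 0.14, adjusted p = 0.0172). Its call was lost in the robust edgeR fit (-0.89 to -0.63 over all alternatives). Cytl1, a secreted cytokine-like protein, was mainly a lung transcript: 139, 167, 244 and 135 CPM in lung GOF (B, D, E and F) against 345, 294, 515 and 239.9 CPM in lung controls, while in liver it stood at 9.70 CPM in GOF B and 12.4 CPM in control B and at or below 1.67 CPM in the other libraries. For Cytl1 the mean log2 fold change was -0.99 (SE 0.19, adjusted p = 0.0267). Its call was lost without liver pair G or lung pair B or E, by limma voom and in the robust fit (-1.33 to -0.79 over all alternatives). Neu3, a plasma membrane sialidase, averaged 8.52 ± 3.38 CPM in GOF and 16.5 ± 6.96 CPM in controls (SD, n = 4 each) in liver, and 2.202 ± 2.18 CPM in GOF and 5.31 ± 0.935 CPM in controls (SD, n = 4 each) in lung. For Neu3 the mean log2 fold change was -1.31 (SE 0.28, adjusted p = 0.0434). That call was lost without any 1 of 7 pairs, all but lung F, and by limma voom (-1.57 to -1.10). Mrgpre, a Mas-related receptor (-0.83, adjusted p = 0.0267), was no longer called without liver pair B or E or lung pair B or E. Setbp1, which encodes a SET-binding protein (-0.63, adjusted p = 0.0267), was not called without liver pair B or E or lung pair D or F. Both calls were also lost by limma voom, and the fold changes stayed between -0.93 and -0.63 and between -0.69 and -0.53.

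Itgb3, the beta-3 integrin of endothelium and platelets, fell in 8 of 8 pairs and is also on the list of platelet markers. It averaged 20.4 ± 4.61 CPM in GOF and 29.8 ± 3.34 CPM in controls (SD, n = 4 each) in liver, and 80.2 ± 84.2 CPM in GOF and 111 ± 79.7 CPM in controls (SD, n = 4 each) in lung, where letter E was far above the other letters in both genotypes (206 CPM in GOF and 229 CPM in control). For Itgb3 the mean log2 fold change was -0.63 (SE 0.13, adjusted p = 0.0334), and the call was lost without liver pair E, F or G or lung pair B or D and by limma voom (-0.74 to -0.50). All 10 platelet markers had a negative fold change (median -0.44), 1 of them called, Itgb3 itself. The summed level of these markers ranged over 43.3 to 71.9 CPM in liver GOF and 67 to 88.3 CPM in liver controls, and 70.1 to 1017 CPM in lung GOF and 106 to 1411 CPM in lung controls. This sum was lower in 7 of 8 pairs, with a mean log2 ratio of -0.47 ± 0.30 (SD over 8 pairs). Itgb3 is part of the sum, which was not taken without it, so the sum is no separate reading of platelets. The exact two-sided sign-flip test gave p = 0.0156, adjusted p = 0.266 over 17 marker lists. The smallest p that this test allows for 8 independent pairs is 0.0078. Ppbp, a gene of the platelet granule, lay between 0.83 and 5.05 CPM in liver GOF and between 0 and 4.37 CPM in liver controls, and between 3.20 and 125 CPM in lung GOF and between 0.45 and 197 CPM in lung controls. The part of platelets in the fall of Itgb3 was not tested.

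Proliferation genes were mostly higher in GOF, and 1 passed the test by edgeR. The cell cycle list was positive in 34 of 35 genes (median 0.73, against 0.00 over all genes). At an unadjusted p of 0.05, 19 were higher, and 1 was called by edgeR, 6 by DESeq2 and 2 by limma voom. Top2a, the DNA topoisomerase of dividing cells, had 50.8, 19.4, 14.9 and 53.4 CPM in liver GOF (B, E, F and G) against 13.8, 8.88, 17.4 and 25.8 CPM in liver controls, and 44.4, 19.7, 37.2 and 21.9 CPM in lung GOF (B, D, E and F) against 6.45, 7.19, 13.4 and 14.03 CPM in lung controls. It was higher in 7 of 8 pairs, all but liver F. For Top2a the mean log2 fold change was 1.27 (SE 0.24, adjusted p = 0.0243). This call was lost without liver pair B and in the robust fit (0.92 to 1.62 over all alternatives). Prc1, a protein of the dividing spindle, was higher in 8 of 8 pairs with 1.51 (adjusted p = 0.0662), and Mki67 in 6 of 8 with 0.96 (adjusted p = 0.208). The median over the list was 1.44 in liver B and 1.22 in lung B, -0.20 in liver F, and between 0.42 and 0.59 in the other 5 pairs. Of 30 interferon response genes 28 had a positive fold change (median 0.36) and 0 were called by edgeR, 0 by DESeq2 and 1 by limma voom, against 10 at an unadjusted p of 0.05; their median was 1.61 in lung B and between -0.15 and 0.34 elsewhere. Markers of blood cells moved in some of these pairs too. The median log2 ratio of 10 neutrophil and monocyte markers was 2.21 in lung B and between -0.85 and 1.18 elsewhere, with 8 of 10 positive in the mean (median 1.24). That of 14 macrophage markers was 1.39 in lung B and between -1.33 and 0.65 elsewhere (9 positive). Ptprc, the leukocyte surface antigen CD45, lay between 0.83 and 2.69 CPM in liver GOF and between 0.13 and 6.04 CPM in liver controls, and between 15.68 and 33.9 CPM in lung GOF and between 1.53 and 15.66 CPM in lung controls, so that the genotypes just failed to overlap in lung. Neutrophil and monocyte marker sums ranged over 85.8 to 164 CPM in liver GOF and 100.4 to 183 CPM in liver controls, and 717 to 2137 CPM in lung GOF and 663 to 2339 CPM in lung controls. They had a log2 ratio of 1.10 in lung B and were higher in 3 of 8 pairs (mean log2 ratio -0.05 ± 0.57, exact sign-flip test p = 0.852, adjusted p = 0.867). Macrophage marker sums ranged over 90.4 to 278 CPM in liver GOF and 97.8 to 317 CPM in liver controls, and 197 to 310.1 CPM in lung GOF and 189 to 285 CPM in lung controls. They were higher in 5 of 8 pairs (mean log2 ratio 0.02 ± 0.36, exact sign-flip test p = 0.852, adjusted p = 0.867). Lymphocyte marker sums ranged over 7.11 to 15.2 CPM in liver GOF and 4.19 to 10.5 CPM in liver controls, and 24.9 to 45.5 CPM in lung GOF and 14.6 to 47.1 CPM in lung controls. They were higher in 6 of 8 pairs but lower in lung B (-0.92; mean log2 ratio 0.50 ± 0.81, exact sign-flip test p = 0.109, adjusted p = 0.498). The part of these cells in the cell cycle and interferon lists was not tested.

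**Figure D4:**
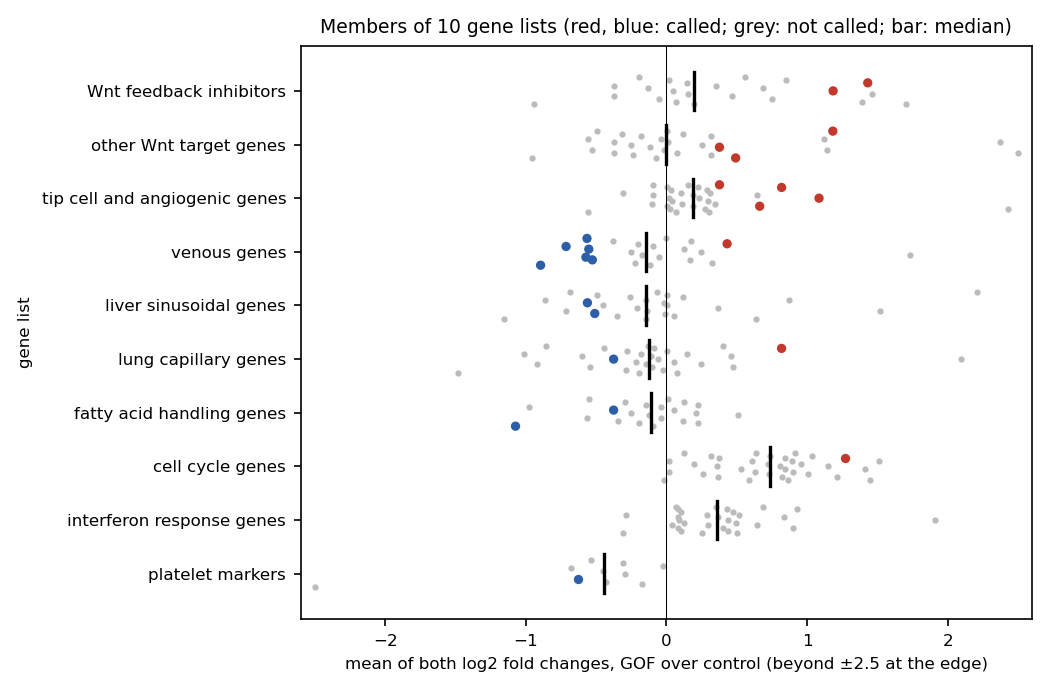
Mean of the liver and lung log2 fold changes (horizontal axis) for the tested members of 10 gene lists (rows); red and blue points were called higher and lower, grey points were not called, and black bars are list medians. The cell cycle median stands at 0.73 and the platelet median at -0.44, with 1 called member each, while 6 blue points stand in the venous row.

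Tip cell and angiogenic genes, those of sprouting vessels, held 4 called members of 31, all higher, and 26 with a positive fold change (median 0.19), against 0.872% called and 8763 of 17536 positive over all genes. In both organs 15 of the 31 were positive and 2 negative, against 4199 and 4324 of all 17536 genes. The list median was 0.22 in liver and 0.07 in lung. Of the called members only Plat rose in all 8 pairs. Apln, Cd34 and Plaur each had a called organ difference: Cd34 changed by 1.17 in liver and 0.16 in lung (difference, adjusted p = 0.0189). The arterial kinase gene Bmx also had one, with 1.09 in liver and -0.16 in lung. In the coagulation and vascular tone list of 27 genes Plat and Plaur were higher and Ptgs1 lower, and in the list of 34 axon guidance genes Ntn1, which encodes netrin, was lower (-0.43, adjusted p = 0.0113). Bcan, a brain proteoglycan, was the 1 called of 39 matrix genes (-1.79, SE 0.36, adjusted p = 0.0333), and its call was lost without liver pair E, F or G or lung pair B, E or F and by limma voom (-2.08 to -1.53). Most of that list went the other way. A positive fold change was found in 26 of its 39 genes (median 0.11), and 21 were positive in both organs. At an unadjusted p of 0.05, 18 matrix genes passed, 13 of them higher, against 9.79% of all genes. DESeq2 called 7 and limma voom 4. The chemokine receptor Cxcr7 was the 1 called of 26 adhesion and cytokine genes, and Dusp2 the 1 of 25 immediate early genes; of 20 p53 targets 0 were called by edgeR and 3 each by DESeq2 and limma voom, against 6 at an unadjusted p of 0.05.

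Some called genes are markers of other cells. Sftpc and Napsa, of 9 alveolar type 2 markers, were called higher. The sum of these markers ranged over 162 to 188 CPM in liver GOF and 145 to 159 CPM in liver controls, and 1992 to 12550 CPM in lung GOF and 1491 to 14260 CPM in lung controls, and it was higher in 7 of 8 pairs (mean log2 ratio 0.21 ± 0.23, exact sign-flip test p = 0.0391, adjusted p = 0.332). Apoh of the hepatocyte list, Krt7 of the cholangiocyte list and Clic5 of the alveolar type 1 list were called lower. Sftpc did not exceed 0.54 CPM in liver GOF and had 0 CPM in liver controls, and its fold change in lung was 0.25. The liver sums of the alveolar type 2 list thus came almost wholly from other members. Every liver pair was among the 7 higher ones, so that count and its test cannot measure alveolar type 2 cells alone. The fold change of Krt7 was -1.71 in liver and 0.28 in lung. Hepatocyte marker sums ranged over 889 to 2056 CPM in liver GOF and 984 to 4503 CPM in liver controls, and 65.2 to 164 CPM in lung GOF and 95.4 to 184 CPM in lung controls, with a mean log2 ratio of -0.30 ± 0.52 (exact sign-flip test p = 0.164, adjusted p = 0.509). None of these genes had 1 direction in 8 of 8 pairs. The part of other cells in these calls was not tested.

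How far the called directions held in libraries that took no part in choosing them was read in 2 ways. First, genes were called with 1 pair left out and then looked up in that pair. Genes called higher had that direction in 79.2% to 91.7% of cases in the 4 liver pairs and in 56.3% to 69.6% in the 4 lung pairs; genes called lower had it in 72.7% to 87.3% and 50.7% to 71.7%. Over all genes the shares of either sign lay between 42.6% and 52.1%, where genes without any difference in the pair counted for neither sign. The lowest shares of called genes were lung D for the rises (49 of 87 genes) and lung E for the falls (35 of 69). The calls still used the other pairs of the same organ. Of the 153 genes called with all pairs, 112 were also called in liver and 1 in lung. The liver shares therefore cannot tell a common change from one of liver alone.

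**Figure D5:**
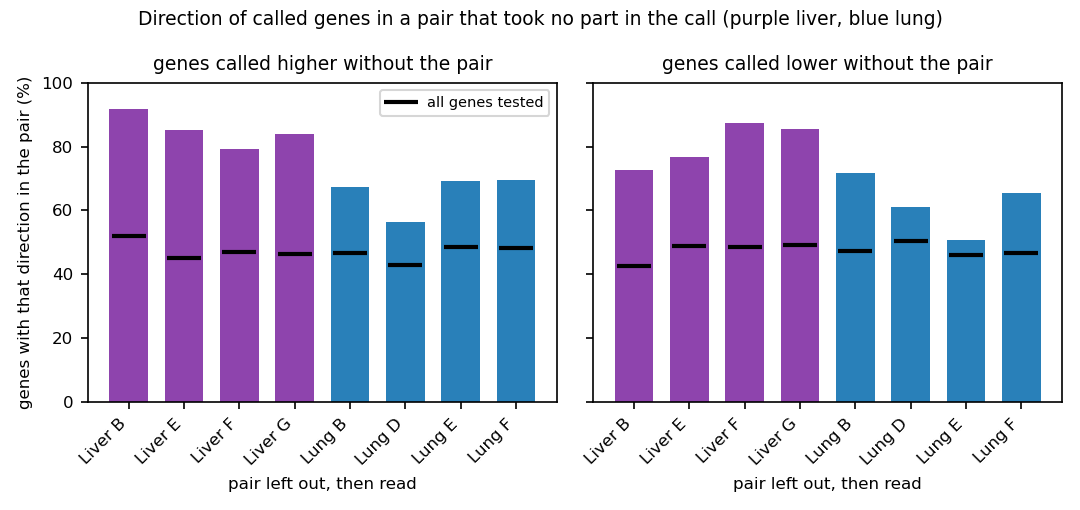
Share of genes (vertical axis, percent) that kept their called direction in the pair left out of the call, for each of the 8 pairs (horizontal axis; purple liver, blue lung); black dashes give the share of all tested genes with that sign. Genes without any difference in the pair count for neither sign. All bars stand above their dash, and every liver bar stands above every lung bar of the same direction, most narrowly for the falls of liver B (72.7%) and lung B (71.7%).

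Second, each organ was fitted alone, so that the organ read shared no library with the organ that chose. The 8 liver libraries called 401 genes of 15555 (2.58%), 240 higher and 161 lower. Of the 239 higher genes that could be read in lung, 118 (49.4%) were higher there, against 49.3% of all genes, with a median log2 fold change of 0.00. Of the 149 lower genes 98 (65.8%) were lower in lung, against 50.7% of all genes, with a median of -0.10. The 8 lung libraries called 3 genes of 15641 (0.0192%), too few to read in liver.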

How the data were processed

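RNA of CD31-sorted endothelial cells was sequenced as paired-end TruSeq libraries. Build mm9 and these tools are listed, per the submitters' processing notes: HTSeq 0.6.1, TopHat2 2.0.11, DESeq2, Bowtie2 2.2.1 and SAMtools 0.1.19, with no role given. The gene annotation and the handling of strand were not stated there. The deposited tables hold raw counts per gene and library, which entered all tests, and 16 per-library CPM columns that were not used. The authors' deposited comparison tables hold mean normalized counts (a signal), log2 fold changes with their standard errors, Wald statistics (a score) and p-values; calls and log2 values were read from them, and gene identifiers were taken from them by matching each row's mean normalized count within a relative tolerance of 1e-06.

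Liver and lung counts were joined by gene row (37991 rows; 25 symbols were written as dates and were read by their identifiers). Genes passing filterByExpr (minimum count 10) were fitted with edgeR 4.0.16 (quasi-likelihood, TMM over 16 libraries, 8 organ-and-letter blocks, 6 residual degrees of freedom), with Benjamini-Hochberg adjustment over 17536 genes and a threshold of 0.05. The labels do not say what a letter stands for. Same-letter libraries deviated together within each organ (correlations 0.171 to 0.396, each highest for its own letter), so letters were taken as pairs; p-values then measure the spread between these pairs. For letters shared by both organs a different measure was taken, the deviation of each pair ratio from the mean ratio of its organ. Between organs these deviations correlated at 0.028 to 0.0363. Whatever both libraries of a letter share cancels in a ratio, so these values cannot be set beside those within organs. Taking such letters as the same mice was tried as an alternative. No pair of replicates agreed within sampling noise. Pair ratios used CPM + 0.5. Marker sums were compared by an exact sign-flip permutation test over 256 arrangements. Like the edgeR fit, it took the 8 pairs as independent, which would not hold if letters shared by both organs were the same mice. DESeq2 and limma voom served as alternatives.

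Named genes were Ctnnb1, the 12 rises and 12 falls with 1 direction in 8 of 8 pairs, at least 50 reads on average in the higher genotype of each organ and the largest change in the weaker organ, then called members of the gene lists and textbook genes of the pathway; other genes were named after their values were seen, as members of the set with 8 of 8 pairs or of a list. Members and lists were chosen with earlier results of these data known. Counts were simulated (16478 genes tested), with some genes changed by 0.5, 1 and 2 on the log2 scale in both organs. The mean contrast recovered 38.8%, 58.2% and 92.1% of them, and the demand on each organ 4.48%, 53.7% and 74.6%. Each simulated gene had the spread typical of its level, without the differences between genes that real counts have. Changed genes were drawn above a floor of mean reads, and those lost to the filter were left out. These shares may thus be too high for real genes. Promoter windows came from RefSeq (GRCm38.p6).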

Additional observations from a re-analysis of the deposited data

Results flagged for a closer look

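In 11 of the genes named by the rule for named genes, the change differed between the organs by the test of the difference itself (edgeR, adjusted p under 0.05). The lung change minus the liver change, on the log2 scale, was -2.27 for Tcf7, -1.33 for Abcb1a and -0.85 for Plat, which rose in 8 of 8 pairs, -1.61 for Dusp2, which did too, and -1.61 for Atp10a, -1.18 for Apln, -1.003 for Cd34, -1.25 for Bmx, -0.997 for Plaur and -3.28 for Dkk2. It was -0.78 for Vwf, which was higher in GOF in every liver pair and lower in every lung pair. Lrig1, Krt7, Sele, Selp and Vcam1, named besides, also passed that test.

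In 18 of 220 groups of 4 libraries, 1 library stood apart from the other 3 of its gene and group by Dixon's criterion, which chance alone meets in about 1 of 20 groups. In liver GOF these were Maged2 in E (123 CPM), St8sia4 in G (27.4 CPM), Cytl1 in B (9.70 CPM), Cpe in B (181.0 CPM) and Nkd1 in E (122 CPM). In liver controls they were Net1 (198 CPM), Cytl1 (12.4 CPM), Mfsd2a (2.23 CPM) and Vwf (8834 CPM) in B, Itgb3 (34.8 CPM) and Dusp2 (30.9 CPM) in G, and Ehd3 in E (3178 CPM). In lung GOF they were Tgfb2 (72.7 CPM) and Itgb3 (206 CPM) in E and Fscn1 in B (97.3 CPM). In lung controls they were Fabp4 (79.0 CPM), Bmx (90.8 CPM) and Tgfbr2 (436 CPM), all in E.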

How the results depend on the processing

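Against 153 genes called in the mean of both organs, 8 were called with no replicate block, 294 with no filter on low counts, 445 by DESeq2's Wald test and 74 without letter F in both organs. Other scalings, a minimum count of 30, limma voom and a robust fit gave 154 to 178, leaving out each pair in turn gave 133 to 167, and leaving out letters B and E in both organs gave 104 and 122. The demand on each organ called 0 genes by edgeR, 6 with no filter, 15 by DESeq2, 7 by limma voom, 8 by limma voom with letters taken as mice, and 0 to 1 when a pair was left out. Of the 65 called genes with 8 of 8 pairs, whose sign their choice fixes, 5 were still called with no replicate block, 50 to 56 without a pair and 32 without letter F. Some calls given above without a limit were lost when 1 letter was left out in both organs. These were Mycn, Myc, Bmx and Ntn1 without B or F, and Scin and St8sia4 without E. Calls of Cd36 and Ehd3 were lost without E or F, and that of Dkk2 without F. The cause of these shifts was not tested. Leaving out libraries lowered the number of samples, and with no filter 22839 genes were tested. In the simulation, whose shares may be too high for real genes, the demand on each organ recovered 4.48% of changes of 0.5 on the log2 scale.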
